A study of Mus musculus with 8 samples.

Results

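Olig1 and Olig2 are neighbouring genes on mouse chromosome 16 (mm10), and the locus described here runs from 100 kb below the lower boundary of Olig2 to 100 kb above the upper boundary of Olig1, chr16:91125550-91371939. Its members are those 2 of 21887 nuclear protein-coding genes in the RefSeq table, together with every listed peak that touched the window by at least 1 bp. Chd7 replicate 1 had 6 such peaks of 5282 deposited, Chd7 replicate 2 had 8 of 6292 and Chd8 had 19 of 18415. The mocks had 0 of 89 and 0 of 98, and the inputs had 5 of 109486, 9 of 178478 and 22 of 91628. The rule picks peaks by their position and uses no measured value.

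Chromatin immunoprecipitation and sequencing (ChIP-seq) was done on O4-positive cells, sorted with magnetic beads from wild-type mice at postnatal day 7, from cortex and corpus callosum. The labels call these cells OPCs (oligodendrocyte precursor cells), and O4 marks committed cells of that lineage. All 8 libraries share this genotype, age, tissue and sort: 2 were precipitated with an antibody to Chd7, 1 with an antibody to Chd8 and 2 with rabbit IgG (mocks), and 3 are input chromatin with no antibody. Chd7 replicate 2 and Chd8 shared a mock, each ChIP had an input of its own by the titles, and the track names inside the files carry numbers that would exchange inputs 2 and 3. No source used here says whether the Chd7 replicates came from separate animals, so their spread may be technical. The extraction notes name an O4 antibody for isolating the complexes, while the antibody field of each ChIP names anti-Chd7 or anti-Chd8. Chd8 has 1 library and no replicate error.

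Olig1 and Olig2 encode basic helix-loop-helix (bHLH) transcription factors that bind E-box sequences, usually as dimers with E proteins such as Tcf3, Tcf4 and Tcf12. Olig2 is needed to specify oligodendrocyte precursors from neural progenitors, and Olig1 acts in their later maturation and in myelin repair. Chd7 and Chd8 belong to the CHD family of remodelers, which use ATP to move nucleosomes at promoters and enhancers. A peak records where fragments of a library piled up over the caller's local background. Its fold is that enrichment as the authors' caller gave it, and it is compared here only within a library.

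The sequences shown are the 250 bases before the start of Olig2 and of Gm52261, a long non-coding RNA gene that begins above Olig2 on the opposite strand, because peaks of Chd8 and of at least 1 Chd7 library lie on each. Both are from RefSeq (GRCm38.p6, the build of mm10), 5′ to 3′ on the strand of the gene. Capitals mark matches, on either strand, to 3 motifs that do not overlap here. The E-box, the binding sequence of bHLH factors, was searched as CANNTG. The box bound by nuclear factor Y was searched as CCAAT, and its matches here stand on the opposite strand. The TATA box, which positions the start of transcription, was searched as TATAAA. Olig2 lies on the plus strand, and its stretch is chr16:91225300-91225549. Gm52261 lies on the minus strand, and its stretch is chr16:91233775-91234024.
Olig2: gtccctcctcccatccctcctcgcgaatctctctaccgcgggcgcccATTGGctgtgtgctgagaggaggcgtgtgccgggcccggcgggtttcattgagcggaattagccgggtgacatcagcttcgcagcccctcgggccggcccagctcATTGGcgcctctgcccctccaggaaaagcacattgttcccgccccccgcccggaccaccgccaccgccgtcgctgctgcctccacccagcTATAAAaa
Gm52261: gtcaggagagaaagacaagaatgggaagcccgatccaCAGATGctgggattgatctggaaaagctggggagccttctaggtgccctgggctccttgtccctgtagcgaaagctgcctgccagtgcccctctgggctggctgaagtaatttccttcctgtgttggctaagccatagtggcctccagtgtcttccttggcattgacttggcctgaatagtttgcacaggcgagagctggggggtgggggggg

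The Chd8 peak covered 250 of the 250 bases shown for Olig2, and Chd7 replicate 2 covered 241 of them. Chd7 replicate 1 covered 0, and of the inputs only input 3 covered any, 72 bases. At Gm52261 all 3 ChIP lists were present: Chd8 covered 250 bases, Chd7 replicate 1 covered 212 and replicate 2 covered 198, and each input covered 0. The Olig2 stretch was 66.8% G or C with 22 CG pairs, a count that 14.8% of 32851 RefSeq promoter windows reach over the same 250 bases (median 6). The Gm52261 stretch was 57.2% G or C with 3 CG pairs, a count that 71.0% reach. Counted back from the start, where the last base before it is -1, CCAAT matches of Olig2 begin at -203 and -98. The TATAAA match begins at -8, and whether it positions this start was not tested. Over all promoters, 33.8% hold CCAAT and 12.4% hold TATAAA. The E-box of Gm52261 begins at -213, 66.2% of promoters hold 1, and none was found in these 250 bases of Olig2.

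**Figure D1:**
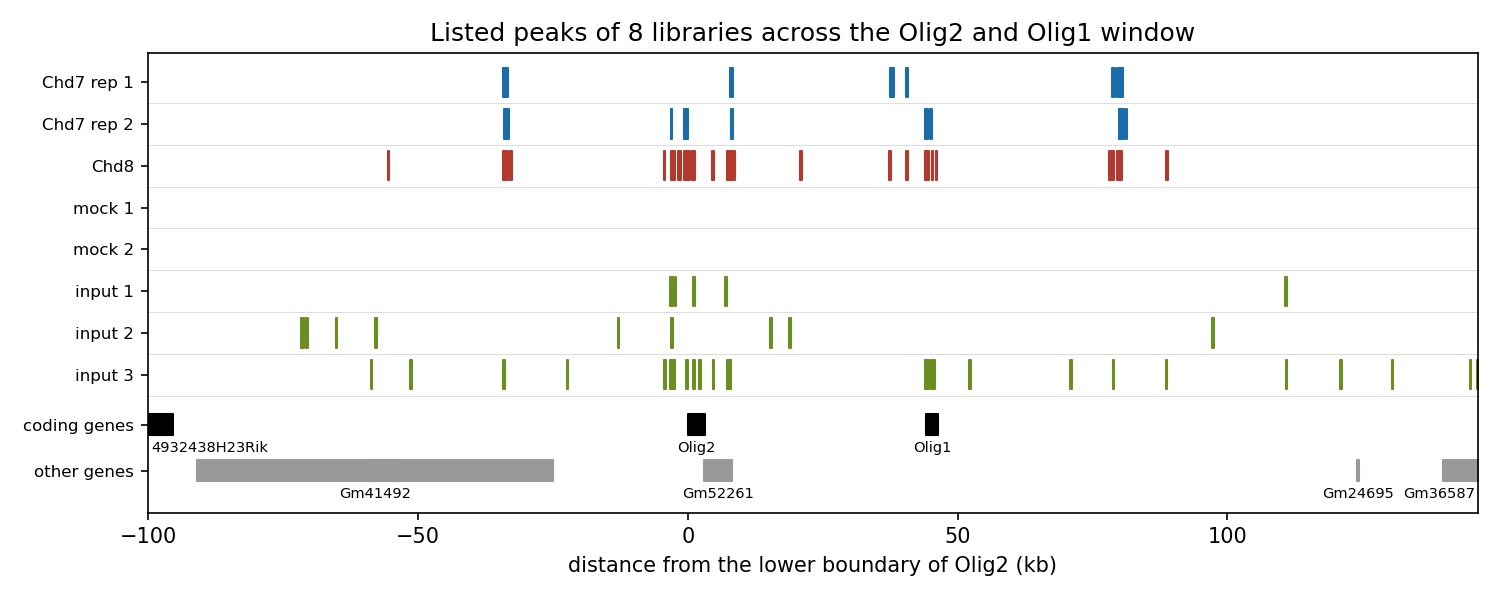
Listed peaks (bars, 1 row for each of the 8 libraries) against distance from the lower boundary of Olig2 in kb, with coding genes in black and other genes in grey; narrow peaks are drawn at a minimum width, and Gm9881 lies within Gm41492. Chd7 replicates 1 and 2 meet at 3 places, about 34 kb below Olig2, 8 kb above its lower boundary and 80 kb above it, and the mock rows are empty.

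Across the window, Chd8 was listed in 19 peaks, at and around Olig2, at the start of Gm52261, at Olig1, between the genes and at distal sites on both sides. Chd8 peaks covered 10863 bp (4.41% of the window), Chd7 replicate 1 peaks 4223 bp (1.71%) and Chd7 replicate 2 peaks 4136 bp (1.68%). Inputs 1, 2 and 3 covered 1189, 2287 and 7067 bp. Merging the ChIP peaks that overlapped gave 21 regions. Chd8 alone was listed in 10 of them, Chd8 with 1 Chd7 replicate in 3 (replicate 1) and 3 (replicate 2), all 3 ChIP lists in 3, and Chd7 replicate 2 alone in 2. Input peaks touched 12 of the 21 regions.

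The 3 regions found in all 3 ChIP lists lay outside the Olig genes. The lowest, at -33.8 kb from the start of Olig2 and inside the long non-coding RNA gene Gm41492, shared chr16:91191432-91192148 among the lists. Its fold was 5.85 in Chd7 replicate 1, 3.05 in Chd7 replicate 2 and 6.88 in Chd8. That fold was the highest of the 6 Chd7 replicate 1 peaks in the window, and only 5.12% of the whole replicate 1 list reached it, whereas it was the lowest of the 8 replicate 2 peaks, and 99.6% of that list reached it. Input 3 also had a peak there, with a fold of 3.8, which held 148 of the 717 shared bases.

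The region above Olig2 covered the start of Gm52261, and the lists shared chr16:91233519-91233972. The start of this gene was covered by all 3 ChIP lists. Fold was 5.71 in Chd7 replicate 1, 3.56 in Chd7 replicate 2 and 6.88 in Chd8, values that 6.78%, 28.3% and 4.04% of the respective lists reach. The Chd8 peak there, 1442 bp wide, was the widest ChIP peak of the window and had the highest −log10 q of the locus, 6.9. Input 3 overlapped the flank toward Olig2 of that Chd8 peak (by 625 bp) and of the Chd7 replicate 1 peak (by 125 bp), but none of the 454 shared bases. Gm52261 overlaps the upper end of Olig2 and runs toward it, so the shared bases hold the start of a transcript antisense to the end of Olig2.

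The distal region above Olig1 shared chr16:91305547-91306083, centred 33.9 kb above the upper boundary of Olig1, where the table lists no gene. Fold was 5.27, 3.57 and 5.20 in Chd7 replicate 1, Chd7 replicate 2 and Chd8, and no input had a peak in the region. Directly below it a Chd8 peak with a fold of 6.48, reached by 5.74% of the Chd8 list, overlapped a Chd7 replicate 1 peak of 5.49 but no replicate 2 peak, and input 3 had a peak of 3.31 there. Directly above it Chd7 replicate 2 had a further peak of 3.55 without Chd8.

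At the Olig genes themselves, the Chd7 replicates differed. A gene end is taken here as either boundary of a gene within 1 kb. Chd7 replicate 1 had a peak at 0 of the 4 Olig ends, beside 5.31% of single gene ends over all protein-coding genes and 10.4% of those genes with at least 1. Chd7 replicate 2 had peaks at 2 of the 4, the lower ends of both genes, beside 8.72% of single ends and 17.0% of genes. The Olig2 peak of replicate 2 had a fold of 3.08, which 94.6% of its list reach. At Olig1 replicate 2 had a pair of peaks, with folds of 3.38 and 3.62. Input 3 had peaks at all 4 Olig ends, beside 26.2% of single ends and 45.2% of genes. Inputs 1 and 2 had none at them, beside 21.9% and 28.4% of genes, nor had the mocks, beside 0.0183% and 0.0137%. Whether the input peaks bear on the difference between the replicates was not tested.

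**Figure D2:**
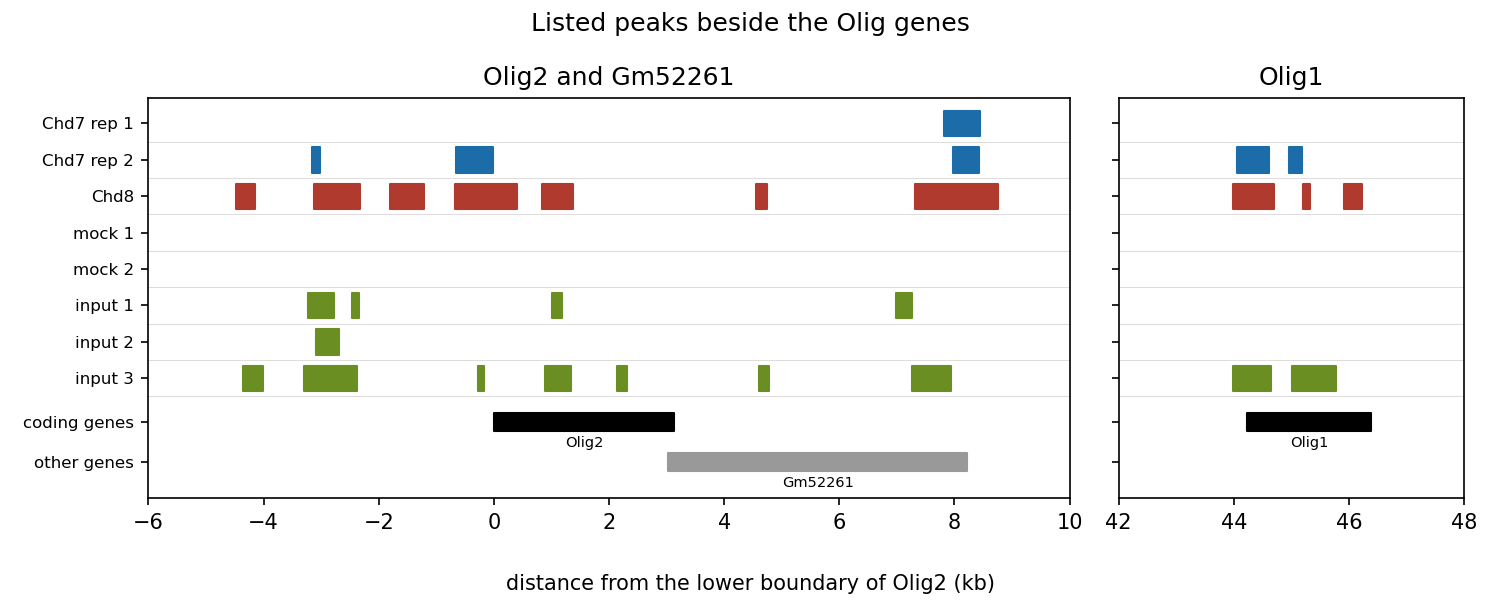
Enlarged views of the same rows at Olig2 with Gm52261 (left) and at Olig1 (right), at 1 scale, against distance from the lower boundary of Olig2 in kb. Chd7 replicate 1 has a bar only at the start of Gm52261, while Chd7 replicate 2 and Chd8 have bars at the lower ends of both Olig genes, where input 3 also has bars.

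Chd8 lay at 3 of the 4 Olig ends, beside 21.6% of single gene ends over all genes. Its peak over the start of Olig2, chr16:91224874-91225955, had a fold of 5.34, which 19.0% of the Chd8 list reach. A further Chd8 peak in the body of Olig2, with a fold of 4.06, also reached the window of its lower end, and peaks with folds of 4.08 and 4.18 were centred at -1.5 and -2.7 kb from its start. The peak at -2.7 kb was touched by a Chd7 replicate 2 peak of 3.26 and by peaks of all 3 inputs. No Chd8 peak lay at the upper end of Olig2. Olig1 had Chd8 at both ends, as did 2.33% of all protein-coding genes and 5.71% of those no longer than Olig2. The folds were 4.57 and 4.05 toward its lower end and 3.95 at its upper end. Chd8 covered 31.4% of Olig2 with 1 kb on both sides and 27.2% of Olig1 with the same margin, where input 3 covered 14.4% and 34.1%. Over Olig1 with its margin, input 3 thus listed more bases than Chd8, and its part in the Chd8 result was not tested.

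Between the genes, which lie 41.1 kb apart, 4 further sites were found. Chd8 and Chd7 replicate 1 overlapped 37.8 kb above the start of Olig2 (folds of 4.75 and 5.39) and again at 40.6 kb (5.33 and 4.2), a short way below Olig1. A Chd8 peak without Chd7 stood at 21.0 kb with a fold of 5.0, which before rounding lay just below 5. None of these sites was touched by a peak of any input, and Chd7 replicate 2 had no peak at them. The fourth, a Chd8 peak at 4.6 kb within Gm52261, had a fold of 4.19 and touched input 3. The longest stretches without a ChIP peak were 57.4 kb at the upper edge of the window and 44.3 kb at its lower edge, and inputs 1, 2 and 3 had 1, 1 and 5 peaks in the first and 0, 4 and 1 in the second.

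The remaining Chd8 peaks had no Chd7. In the lower flank they stood at -55.6 kb (fold of 3.81, inside the small non-coding gene Gm9881), at -32.8 kb (5.46, beside the lowest shared region) and at -4.3 kb (3.9), and in the upper flank at 88.8 kb (4.17). Input 3 touched the last 2 of these 4. The other genes of the window, 4932438H23Rik, Gm41492, Gm9881, Gm24695 and Gm36587, had no ChIP peak at an end.

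**Figure D3:**
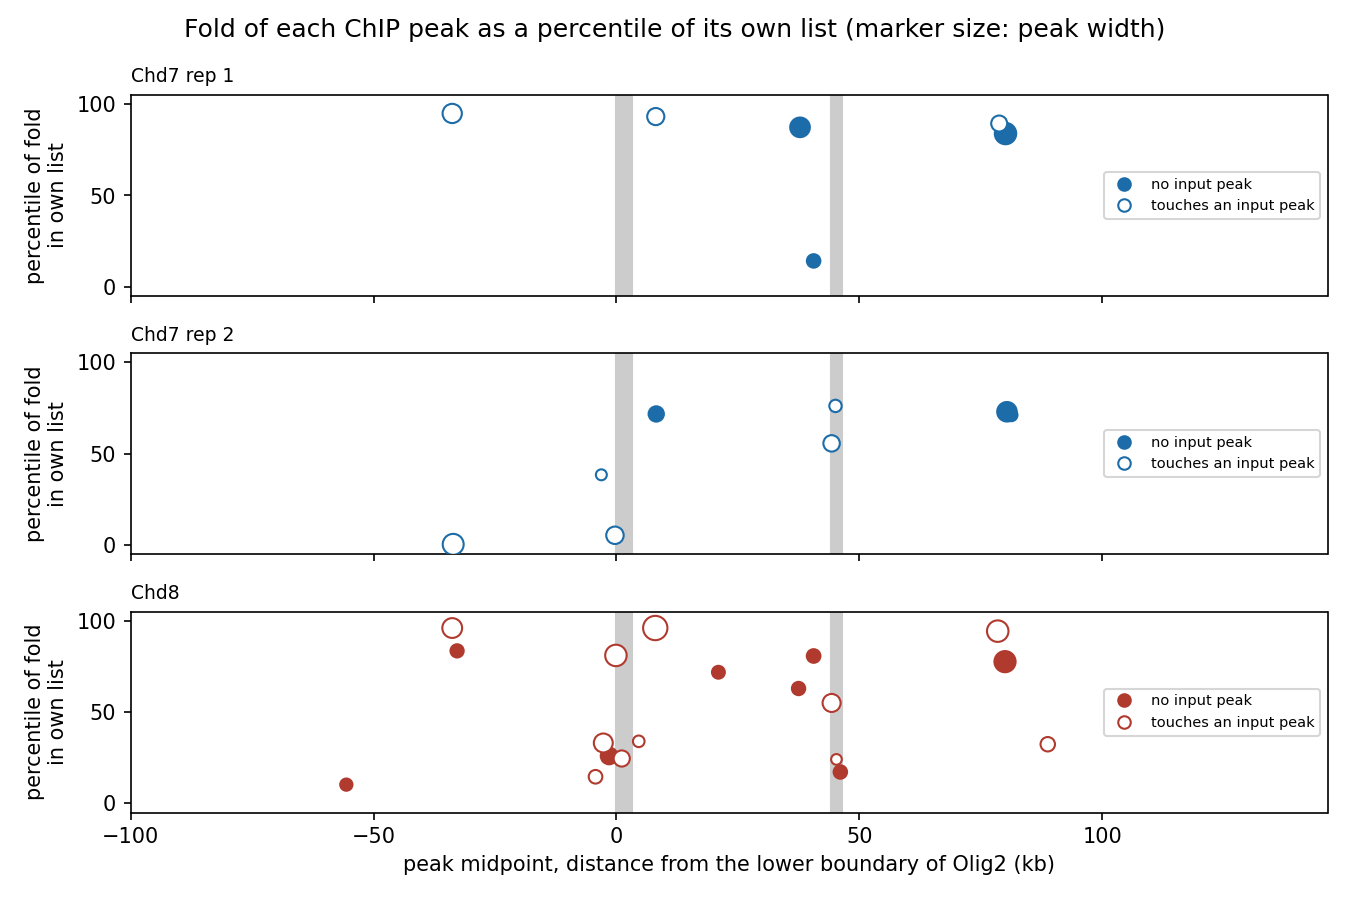
Fold of every ChIP peak in the window as a percentile of its own list (y axis, 0 to 100) against the distance of its midpoint from the lower boundary of Olig2 in kb; marker size follows peak width, filled markers touch no input peak, and grey bands are Olig2 and Olig1. In Chd7 replicate 1, 5 of 6 peaks lie between 83.9 and 94.9, while those of Chd7 replicate 2 lie between 0.449 and 76.2.

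Ranked within its own list, Chd7 replicate 1 stood higher at the locus than Chd7 replicate 2. Fold in replicate 1 ran from 4.2 to 5.85 with a median of 5.44 (n = 6 peaks), against a median of 4.60 over its list. In replicate 2 it ran from 3.05 to 3.62 with a median of 3.46 (n = 8), against 3.34. Chd8 fold ran from 3.81 to 6.88 with a median of 4.57 (n = 19), against 4.47. Of the 19 Chd8 peaks, 3 passed a −log10 q of 5. These were the lowest site common to all ChIP lists, the start of Gm52261 and the site directly below the distal region above Olig1. All 3 touched a peak of input 3. No Chd7 peak in the window passed that cut. The highest −log10 q was 4.31 in Chd7 replicate 1, at a peak whose fold 5.12% of its list reach. In Chd7 replicate 2 it was 2.06. How much of each whole list passes the cut was not computed, so these counts do not set the locus apart. Peaks of 1 library at 1 locus are not replicates, and no test was made between them.

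Many of these peaks were shared by Chd7 and Chd8, as were many over the whole lists. All 6 Chd7 replicate 1 peaks touched a Chd8 peak, beside 78.8% of that list, and 6 of 8 Chd7 replicate 2 peaks did, beside 62.2%. In the other direction 9 of 19 Chd8 peaks touched a Chd7 peak of either replicate, beside 35.4% of the Chd8 list, and 3 touched both, beside 7.86%. Each replicate alone touched 6, beside 22.2% (replicate 1) and 21.1% (replicate 2). The replicates touched each other in 3 of 6 replicate 1 peaks (26.8% over the list) and 3 of 8 replicate 2 peaks (22.3%). With so few peaks these counts are descriptions of the locus. Chd8 peaks touched by Chd7 had a median fold of 5.33 and a median width of 891 bp (n = 9), and the others 4.07 and 298 bp (n = 10). Over the whole Chd8 list the same values were 4.96 and 583 bp for 6495 touched peaks and 4.26 and 307 bp for 11855 others, so the locus followed the order seen across the genome. Overlap was scored at 1 bp, so a wider peak is more easily touched, and the part of this rule in the widths was not tested.

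Input peaks were unevenly spread over the 3 inputs. Input 3, which the titles assign to Chd8, touched 11 of 19 Chd8 peaks, beside 40.3% of the Chd8 list. Input 1 touched 2, beside 16.9%. Input 2, the input of Chd8 if the track numbers are followed, touched 1, beside 17.9%. Of the Chd7 replicate 1 peaks, 0 of 6 touched input 1, their own, beside 15.2% of the list, 0 touched input 2, beside 14.3%, and 3 touched input 3, beside 34.3%. Of the Chd7 replicate 2 peaks, 1 of 8 touched input 2, their own, beside 32.8%, 1 touched input 1, beside 27.0%, and 5 touched input 3, beside 52.5%. Any input touched 3 of 6, 5 of 8 and 11 of 19 peaks of Chd7 replicate 1, Chd7 replicate 2 and Chd8, beside 38.8%, 62.2% and 46.3% of the lists. Without those peaks, 8 Chd8, 3 Chd7 replicate 1 and 3 Chd7 replicate 2 peaks were left, including both Chd7 and Chd8 in the distal region above Olig1, and 1 of the 4 Olig ends kept a Chd8 peak, the upper end of Olig1.

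The locus took a larger share of the ChIP lists than of the input lists. The window held 0.283% of all listed bases of Chd7 replicate 1, 0.189% of Chd7 replicate 2 and 0.124% of Chd8. Inputs 1, 2 and 3 had 0.00292%, 0.00281% and 0.0206% of their bases there, and the mocks had 0% and 0%. Every ChIP share lay above every input share. The mean over ChIPs was 0.199% ± 0.0797 (SD, n = 3) and over inputs 0.00879% ± 0.0103 (SD, n = 3), a difference of 0.190 percentage points (two-sided exact permutation p = 0.1, the smallest that 3 against 3 allows, so the design cannot show a difference by this test). The ChIP group joins 2 antibodies, and the share also depends on how much else each list holds.

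**Figure D4:**
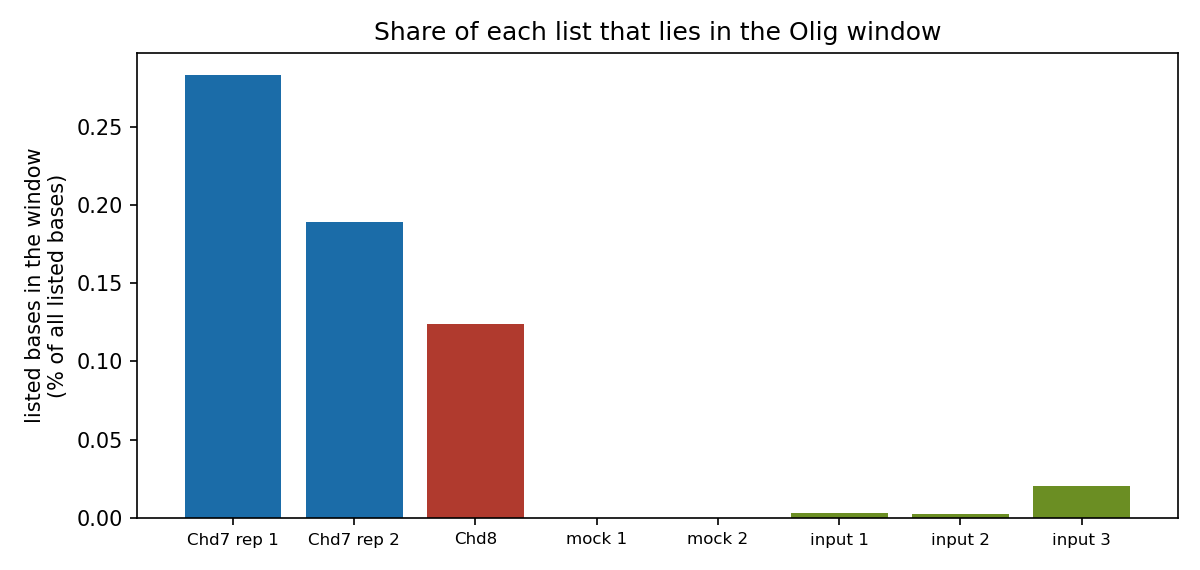
Listed bases in the window as a percentage of all listed bases of each library (bars from 0, 1 library each, no error bar). The 3 ChIP bars stand at 0.283, 0.189 and 0.124, input 3 is the highest control at 0.0206, and the mocks are at 0.

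The number of peaks in the window was set beside windows of the same length centred on each of the 21887 protein-coding genes. Neighbouring genes share windows, so the shares are descriptions. The 19 Chd8 peaks compared with a median of 3, and 0.315% of windows held at least as many. For Chd7 the 6 and 8 peaks of replicates 1 and 2 compared with a median of 1 each, and 1.17% and 0.302% of windows held at least as many. Sites where a Chd8 peak touched both Chd7 replicates numbered 3 at the locus, a count that 1.54% of windows reach. Inputs 1 and 2 had fewer peaks at the locus (5 and 9) than in the median window (9 and 16), and 78.4% and 80.5% of windows held at least as many. Input 3 had 22 against a median of 10, and 18.0% of windows held at least as many.

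Among other factors of the oligodendrocyte lineage, the Olig genes had the densest Chd8 peaks. Counted over each gene with 100 kb on both sides, Olig1 had 9.40 and Olig2 9.35 Chd8 peaks per 100 kb, from the same 19 peaks, against a median of 1.23 over all protein-coding genes, and 0.0685% and 0.0822% of those genes had at least this density. Sox8, a SoxE factor, followed with 7.81, then Sox2, a neural progenitor factor, with 6.91, and Sox10, which drives oligodendrocyte differentiation and works with Olig2, with 6.68. Nkx2-2, a homeodomain factor of the same lineage, had 3.65, and Myrf, the activator of myelin genes, had 0.860. Olig3 and Bhlhe22, relatives of Olig2, had 0, as had the homeodomain gene Nkx6-1 and the zinc finger gene St18. The order rests on 1 Chd8 library, so it carries no replicate error. In the Chd7 lists Olig1 and Olig2 had the same 6 and 8 peaks within 100 kb, and Sox10 had 4 and 4.

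**Figure D5:**
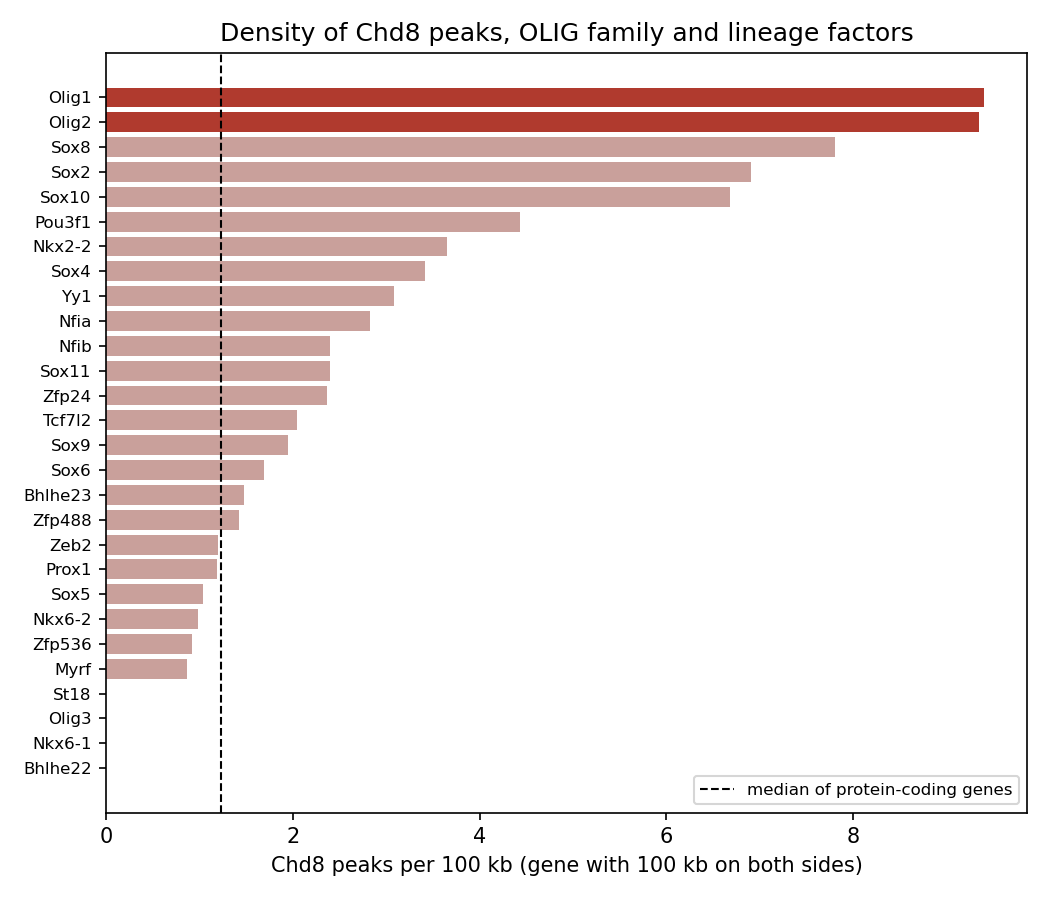
Chd8 peaks per 100 kb (x axis) over each gene with 100 kb on both sides, for 28 genes of the OLIG family and the oligodendrocyte lineage, with the median of all protein-coding genes as a dashed line at 1.23. Olig1 and Olig2 (dark bars, 9.40 and 9.35) share their peaks and stand above the other 26.

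At gene ends, Chd8 was found at 2 of 5 OLIG family genes, Olig1 and Olig2 themselves, beside 41.0% of all genes. Bhlhe23, a further relative, had a Chd7 replicate 2 peak (3.38) and no other ChIP peak. Chd8 was also found at 18 of 23 other lineage factors. The highest folds there were 5.2 at Zfp24, 4.85 at Sox5, 4.74 at Sox6, 4.71 at Sox4, 4.71 at Zfp536 and 4.59 at Sox11. All of these lay between the 5.34 of Olig2 and the 4.57 of Olig1. The bHLH partners and inhibitors had Chd8 at 11 of 11 genes, with 7.01 at Tcf3 and 6.98 at Tcf4, E proteins that pair with Olig factors, 6.47 at the Notch effector Hes5 and 5.3 at Tcf12. Among 6 chromatin regulators known to act with Olig2 or named in the study, 5 had it: Chd8 itself (6.92), the acetylase Ep300 (5.87), the remodeler Smarca4 (5.28), the deacetylase Hdac2 (4.57) and its relative Hdac1 (4.54). The remaining regulator, the Chd7 gene, had no ChIP peak at an end. Chd7 in both replicates lay at an end of 4 of 11 partners and inhibitors, 1 of 23 lineage factors, 1 of 6 chromatin regulators and 0 of 5 OLIG family genes, beside 5.45% of all protein-coding genes.

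The labelled cell type was set against marker genes in the same way, although occupancy does not measure expression. Chd8 lay at an end of 4 of 6 OPC markers (not at Cspg4 or Ptprz1), 2 of 6 markers of myelinating oligodendrocytes, 2 of 6 of neurons, 2 of 6 of astrocytes, 1 of 6 of microglia and 0 of 6 of endothelial cells, beside 41.0% of all protein-coding genes. The OPC markers were Gpr17 (5.94), an orphan receptor of precursors, Sox10 (4.53), Lhfpl3 (4.36) and Pdgfra (4.25), the growth factor receptor of OPCs. Outside the lineage the peaks lay at the neuronal genes Snap25 (5.26) and Tubb3 (4.33), the astrocyte glutamate transporters Slc1a3 (4.29) and Slc1a2 (4.16), and the microglial receptor P2ry12 (3.95), and the myelin genes were Cnp (4.34) and Mbp (3.81). Input 3 lay at 3, 4, 5, 3, 1 and 3 of the same lists, beside 45.2% of all genes. At the factor lists above, in the order given, input 3 lay at 4 of 5, 10 of 23, 9 of 11 and 5 of 6 genes, and its part in the Chd8 counts was not tested.

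The genes whose pattern was most like that of each Olig gene were sought over the 8 libraries, by the distance between log2(1 + listed bases per kb) over the gene with 10 kb on both sides. Nearest to Olig2 were Cirbp (1.48), a cold-inducible RNA-binding protein gene, Midn (1.54), the mitotic kinase gene Aurkb (1.63), the zinc finger gene Maz (1.66) and Prrt2 (1.79). The stretches compared overlap for Cirbp and Midn, and for Maz and Prrt2. Nearest to Olig1 were Nme3 (2.12), Igfals (2.23), Mrps34 (2.23), Nubp2 (2.37) and Eme2 (2.39), which lie together on chromosome 17 in overlapping stretches. Olig1 and Olig2 were less alike, at a distance of 7.17, where the median gene was 10.7 from Olig2. In these stretches Chd7 replicates 1 and 2 listed 26.8 and 53.7 bases per kb around Olig2 and 53.3 and 35.5 around Olig1. Chd8 listed 213 and 79.1. The Chd7 replicate 1 bases lay in the 10 kb margins, since it listed 0 bases over either gene with 1 kb on both sides. The distance of 7.17 between the Olig genes came mostly from inputs 1 and 2, and less from the ChIP lists. These inputs listed 43.9 and 17.5 bases per kb around Olig2 and 0 and 0 around Olig1.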

How the data were processed

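Broad peak lists of 8 ChIP-seq libraries on mm10 were used, 1 list per library. Alignment and peak calling used MACS with Bowtie2, SAMtools and Picard, per the submitters' processing notes, and no source used here gives their versions, settings or the controls of the calls. Each deposited list holds, by its column order, a score per peak (10 times the −log10 q to within 1 unit), the fold of the peak over local background, a ratio made by the authors' caller, and the −log10 p and −log10 q that the authors' caller gave. Read counts are not among the columns, and library depth is therefore unknown.

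ChIP peaks that touched a mock peak by 1 bp were left out, and none of them lay in the window. Percentiles of fold refer to the remaining 5218, 6237 and 18350 peaks of Chd7 replicate 1, Chd7 replicate 2 and Chd8. Gene boundaries came from a RefSeq table of GRCm38.p6, and strands and sequences from a RefSeq promoter table, in which Olig2, Gm52261 and Gm41492 matched; Olig1 was named by its boundaries. All 89 distinct listed genes matched by symbol. The list of neural bHLH factors is not reported here. Overlaps and shares were computed in Python 3.11.15 with NumPy 2.4.6 and pandas 2.3.3, the exact permutation test over libraries with SciPy 1.17.1. Overlap and test functions were tested on simulated data.

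The members and lists were chosen with earlier results of these data known. Named were the genes of the window, for each list the up to 4 genes (6 for lineage factors) with the highest Chd8 fold at an end, and the 5 nearest patterns at least 1 Mb away. The rule does not cover Hdac1, Bhlhe23, the Chd7 gene, the genes named for density or position outside the window, or markers without a peak. They were named after their values were seen. Alternatives were stricter q or fold, peaks in inputs left out, other flanks, overlaps and end windows, each library left out, and a replicate block.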

Additional observations from a re-analysis of the deposited data

How the results depend on the processing

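Keeping mock-touching peaks could change no peak count, since none of them lay in the window. Flanks of 50 or 200 kb left each peak count within 1.5 times its value. The q and fold cuts were applied to the Chd7 and Chd8 lists alike. A −log10 q of at least 5 left 3 Chd8 peaks, 0 and 0 Chd7 peaks, 3 Chd8 peaks touched by input 3 and 0 Olig ends with Chd8. With no Chd7 peak left, the count of Chd8 peaks touched by Chd7 could only be 0. In the uncut Chd7 replicate 1 list, peaks overlapped those 3 Chd8 peaks by 834, 619 and 481 bp. A fold of at least 5, before rounding, left 7 Chd8 peaks, 5 Chd7 replicate 1 peaks and 0 Chd7 replicate 2 peaks. It left 4 Chd8 peaks touched by Chd7, 4 touched by input 3 and 1 end. Fold scales differ between libraries, with list medians of 4.60, 3.34 and 4.47 for Chd7 replicate 1, Chd7 replicate 2 and Chd8. How much of each whole list these q and fold cuts keep was not computed. Without peaks in any input, 8 Chd8 peaks, 3 peaks of each Chd7 replicate, 3 Chd8 peaks touched by Chd7 and 1 end remained. By that setting itself, 0 were touched by input 3. A reciprocal overlap of 50% gave 5 Chd8 peaks touched by Chd7 and 5 by input 3, and input 2 in place of input 3 touched 1. With an end window of 5 kb, 4 Olig ends had Chd8, and 2 had it where the boundary had to lie within the peak, against 3 at 1 kb. Chosen after seeing the data, Chd7 in both replicates touched 3 Chd8 peaks, and either replicate alone touched 6. The difference in share of listed bases was positive in 11 of 11 alternatives. It ran from 0.148 to 0.227 with 1 library left out, with an exact permutation p = 0.200, the smallest possible there. With the replicate block it was 0.190 (exact permutation p = 0.25, the smallest that 3 pairs allow). With mocks and inputs together as controls it was 0.193 (exact permutation p = 0.0357, the smallest that 3 against 5 allows). That floor is lower than 3 against 3 can reach. The mocks, with lists of only 89 and 98 peaks, added shares of 0%, so nothing was concluded from this p-value.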

Other observations

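Among the coding genes next to the Olig genes on both sides (Paxbp1, 4932438H23Rik, Ifnar2 and Il10rb), only Paxbp1 had a peak of all 3 ChIP lists at an end. The nearest coding boundary below the Olig genes, the upper end of 4932438H23Rik, had no ChIP peak and no input peak. The upper end of Paxbp1, at -181.2 kb from the start of Olig2, had Chd7 folds of 4.91 and 4.46 in replicates 1 and 2 and a Chd8 fold of 6.43, beside peaks in inputs 2 and 3. On the other side, the lower end of Ifnar2, which encodes a subunit of the type I interferon receptor, had Chd8 at 4.65, no Chd7, and peaks in all 3 inputs (5.67, 5.28 and 3.88 in inputs 1, 2 and 3). The adjoining ends of Ifnar2 and Il10rb, an interleukin receptor gene, shared a Chd8 peak of 4.09 and a Chd7 replicate 2 peak of 3.32, and all 3 inputs had a peak there (3.52, 4.09 and 3.51). These genes were named for their position.

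Of the places named in the window, the start of Gm52261 and the region 33.9 kb above Olig1 were those where the bases common to both Chd7 replicates and Chd8 held no peak of any input. The start of Gm41492, between the Olig genes and the lowest shared region, had no peak of any of the 8 libraries in its 250 bases.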
